A study of Mus musculus with 14 samples.

Results

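The insulin-like growth factor (IGF) system was examined through 10 genes, all of those with the symbols Igf1, Igf2, Igf1r, Igf2r, Igfbp2, Igfbp3, Igfbp4, Igfbp5, Igfbp6 and Igfbp7 among the 46904 genes of the expression table. The genes were taken by symbol, with earlier results of these data known. All 10 were above 0 in at least 2 libraries, which was the only filter, and none was lost to it. Their mRNA was measured by RNA-seq in whole brain hemispheres of 12-week-old male mice on a C57BL/6J background, collected 48 h after the middle cerebral artery was occluded for 20 min (MCAO). The ischemic hemisphere is called MCAO and the opposite, contralateral hemisphere is called CL. The 14 libraries comprise 3 CL and 3 MCAO libraries of wild-type mice (Cort+/+), and 3 CL and 5 MCAO libraries of mice that lack the neuropeptide cortistatin (Cort-/-). The CL hemisphere comes from an operated brain and is not a sham control, and Cort is missing in all cells of the Cort-/- mice from development on. The comparisons ask how the system differs between the hemispheres in each genotype, and whether that difference depends on cortistatin.

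The ligands IGF1 and IGF2 act mainly through IGF1R, a receptor tyrosine kinase that signals to PI3K and Akt and to the MAP kinases, and promote the growth and survival of cells. IGF2R, also the mannose 6-phosphate receptor, takes IGF2 up for degradation. The IGF-binding proteins (IGFBPs) are secreted proteins that hold the ligands outside the cell, prolong their life and limit or help their access to the receptor. In the adult brain IGF1 is made by neurons and by activated microglia, and IGF2 mainly by the choroid plexus and the meninges.

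The 3 members that rose in the ischemic hemisphere were Igfbp2, Igfbp5 and Igfbp7, so the 250 bases before the RefSeq start of each are shown here, 5′ to 3′ in the sense of the gene and placed on GRCm39 by exact match. They lie at chr1:72863389-72863638 on the plus strand, chr1:72914025-72914274 on the minus strand and chr5:77555893-77556142 on the minus strand. The GENCODE starts of these genes differ from the RefSeq starts by 10, 19 and 22 bases. Capitals mark matches, on either strand, to the motifs searched.
Igfbp2: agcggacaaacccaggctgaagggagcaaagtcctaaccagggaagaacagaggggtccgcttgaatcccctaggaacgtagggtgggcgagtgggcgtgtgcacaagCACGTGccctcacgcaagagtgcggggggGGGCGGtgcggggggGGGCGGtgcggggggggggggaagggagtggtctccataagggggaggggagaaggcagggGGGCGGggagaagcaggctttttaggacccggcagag
Igfbp5: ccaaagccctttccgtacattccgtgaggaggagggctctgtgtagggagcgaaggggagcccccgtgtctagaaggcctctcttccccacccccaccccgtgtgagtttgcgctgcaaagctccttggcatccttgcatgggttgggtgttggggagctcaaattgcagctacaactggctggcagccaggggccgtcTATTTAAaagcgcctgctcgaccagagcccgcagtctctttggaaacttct
Igfbp7: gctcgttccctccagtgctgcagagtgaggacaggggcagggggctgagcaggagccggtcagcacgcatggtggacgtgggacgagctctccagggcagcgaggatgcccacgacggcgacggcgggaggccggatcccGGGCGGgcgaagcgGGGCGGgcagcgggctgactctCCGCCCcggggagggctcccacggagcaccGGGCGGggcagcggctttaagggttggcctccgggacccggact
The motifs were the GC box GGGCGG, the TATA box TATAAA, its variant TATTTAA, the E box CACGTG and the AP-1 site TGANTCA, none of which overlapped another in these 3 windows. Igfbp2 held 3 GC boxes and 1 E box, Igfbp7 held 4 GC boxes, and Igfbp5 held TATTTAA and no GC box. Of 32851 promoter windows of the same length in RefSeq, 32.7% held a GC box, 12.4% TATAAA, 4.18% TATTTAA, 6.02% the E box and 6.75% the AP-1 site. Of the 10 members, 5 held a GC box, 2 TATAAA, 1 TATTTAA, 2 the E box and 1 the AP-1 site. The GC content was 67.2% for Igfbp2, 58.8% for Igfbp5 and 74% for Igfbp7, against a median of 52.4% over all windows. No motif was thus shared by the 3 members that rose.

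The libraries held 25989673 to 43032291 reads on genes. Cort itself had 0 to 4 reads in each Cort-/- library and 64 to 139 in each Cort+/+ library, as labelled. Markers of neurons, oligodendrocytes, astrocytes and microglia were all detected in each group. The summed expression of 8 injury response genes (Gfap, Vim, Lcn2, Lgals3, Cd44, Timp1, Hmox1 and Spp1) was 66.9 to 186 RPKM, reads scaled to the length of the gene and the depth of the library, in the CL and 210 to 757 RPKM in the MCAO libraries. Cort+/+ CL replicate 1 (186 RPKM) and Cort-/- CL replicate 2 (166 RPKM) stood above the other CL libraries, which reached 84.9 RPKM, and Cort+/+ MCAO replicate 4 (210 RPKM) was the lowest MCAO library. Counts of members below are also given without these 3 libraries where they change.

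The members differed widely in level. In the 6 CL libraries, Igfbp5 was the most abundant with 34.2 ± 2.32 RPKM (SD, n = 6), and no library of any other member reached its lowest value of 31.0 RPKM. Igfbp6 (18.03 ± 1.16 RPKM), Igfbp2 (17.96 ± 1.23), Igfbp4 (15.5 ± 1.051), Igf2 (13.6 ± 2.37) and Igfbp7 (12.4 ± 1.21) followed, and each overlapped the next in this order. Igf1r had 7.77 ± 0.457 RPKM, Igf2r 5.70 ± 0.422 RPKM and Igfbp3 4.14 ± 0.677 RPKM, and the last pair overlapped. Igf1 was the lowest with 0.840 ± 0.0773 RPKM and lay apart from all others, and over all 14 libraries it had 241 to 403 reads in a library. In the 8 MCAO libraries Igfbp2 (29.6 ± 7.79 RPKM) and Igfbp7 (23.1 ± 7.16 RPKM) came next after Igfbp5 (48.0 ± 6.37 RPKM), with neighbours that overlapped, and the order of the other members was as in CL.

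**Figure D1:**
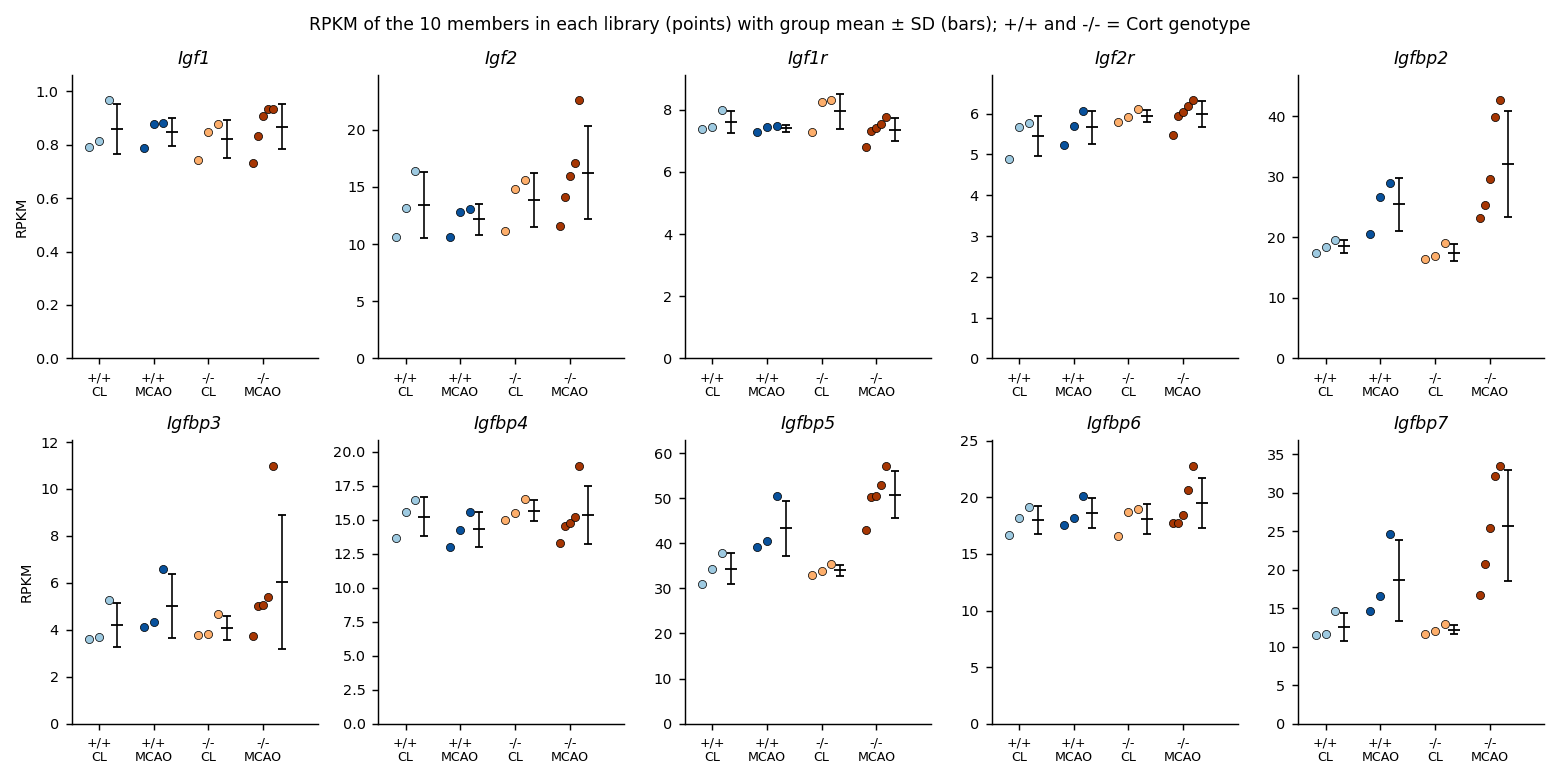
Expression of the 10 members (y axis, RPKM, from 0) in each of the 14 libraries (points), by Cort genotype and hemisphere (x axis), with the group mean and SD beside the points. In the panels of Igfbp2, Igfbp5 and Igfbp7 every MCAO library lies above every CL library, while in the other 7 panels the hemispheres overlap.

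Of the 10 members, 3 rose in the MCAO hemisphere in the mean of both genotypes, weighted equally, and all 3 code for binding proteins. The call is an adjusted p under 0.05 by limma on log2(RPKM + 0.1) with Benjamini-Hochberg adjustment over 46102 genes, and 2.52% of these genes rose by it (5.56% of the 15063 genes that averaged 1 RPKM or more, as 9 of the members did). None of the 10 fell, and 0.902% of all genes did. The median log2 fold change was 0.06 over the members, 0.40 over the 6 binding proteins and 0.03 over the 4 ligands and receptors, against -0.03 over all genes that averaged 1 RPKM or more. In bulk tissue, a change in the number of cells that express a gene and a change in the RNA per cell cannot be told apart.

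Igf1, the ligand that activated microglia are known to make, did not pass the test. It was measured at 0.793, 0.815 and 0.966 RPKM in the Cort+/+ CL libraries and at 0.882, 0.876 and 0.786 RPKM in the Cort+/+ MCAO libraries. In Cort-/- mice it was at 0.846, 0.741 and 0.876 RPKM in CL and at 0.935, 0.834, 0.932, 0.733 and 0.906 RPKM in MCAO. The hemispheres overlapped in both genotypes, and the log2 fold change over both was 0.03 (95% interval -0.16 to 0.22, adjusted p = 0.934 by limma). Its highest value was 1.32 times its lowest over all 14 libraries. Beside this, the summed expression of 5 microglial markers (Cx3cr1, P2ry12, Tmem119, Csf1r and Aif1) was 47.9 to 52.3 RPKM in CL and 61.2 to 97.7 RPKM in MCAO libraries, and 4 of the 5 rose over both genotypes.

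Igf2, the ligand made mainly by the choroid plexus and meninges, varied more between libraries than between hemispheres. It had 16.4, 13.2 and 10.7 RPKM in Cort+/+ CL, 13.1, 12.8 and 10.6 RPKM in Cort+/+ MCAO, and 14.8, 15.6 and 11.1 RPKM in Cort-/- CL. The Cort-/- MCAO libraries held 22.6, 15.9, 14.1, 17.0 and 11.6 RPKM, the first of which was the highest of all and the last within the CL range. The log2 fold change over both genotypes was 0.04 (95% interval -0.27 to 0.36, adjusted p = 0.941 by limma). Igf2 shares its strand and part of its locus with the gene model Gm49394, whose row held 97.4% to 98.9% as many reads as Igf2 in every library, so the reads of these 2 rows cannot be told apart. The summed markers of choroid plexus epithelium (Ttr, Folr1, Kl, Clic6, Kcnj13 and Otx2) were 295 to 448 RPKM in CL and 302 to 500.3 RPKM in MCAO libraries, and none of the 6 passed the test. Fibroblast markers (Col1a1, Col1a2, Col3a1, Dcn, Lum and Slc6a13) summed to 16.3 to 19.5 RPKM in CL and 20.2 to 32.6 RPKM in MCAO libraries. Of these 6 markers, 1 rose over both genotypes. The part of either cell type in the level of Igf2 was not tested.

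The receptors varied little, and over all 14 libraries the highest value was 1.22 times the lowest for Igf1r and 1.29 times for Igf2r. Igf1r, which carries the signal of both ligands, had 7.60 ± 0.339 (SD, n = 3) RPKM in Cort+/+ CL, 7.39 ± 0.109 (n = 3) in Cort+/+ MCAO, 7.94 ± 0.566 (n = 3) in Cort-/- CL and 7.36 ± 0.358 (n = 5) in Cort-/- MCAO. Its log2 fold change over both genotypes was -0.07 (95% interval -0.17 to 0.02, adjusted p = 0.481 by limma), and all groups overlapped. Igf2r, the scavenging receptor for IGF2, had 5.45 ± 0.485, 5.66 ± 0.414, 5.94 ± 0.158 and 6.00 ± 0.321 RPKM in the same order. In CL it was at 5.80 to 6.11 RPKM in Cort-/- and at 4.89 to 5.78 RPKM in Cort+/+ libraries, with an unadjusted p of 0.123 by limma. The share of all genes whose genotypes separate in this way in CL is not given here, so no weight is put on it. The log2 fold change of Igf2r between hemispheres over both genotypes was 0.03 (95% interval -0.08 to 0.15, adjusted p = 0.848 by limma). In the mean of both genotypes the intervals exclude a change of Igf1r or Igf2r by more than 0.17 on the log2 scale in either direction. Within 1 genotype they reached further, to -0.23 for Igf1r in Cort-/- mice and to 0.22 for Igf2r in Cort+/+ mice.

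Igfbp5, the most abundant of the binding proteins and one that attaches to the extracellular matrix, lay higher in the MCAO than in the CL libraries of both genotypes. The CL libraries of Cort+/+ mice held 37.9, 31.0 and 34.2 RPKM and the MCAO libraries 39.2, 50.4 and 40.5 RPKM. The CL libraries of Cort-/- mice held 33.9, 35.3 and 32.9 RPKM and the MCAO libraries 52.8, 50.3, 42.9, 57.2 and 50.5 RPKM. The hemispheres did not overlap in either genotype (5.73% of genes were higher without overlap in Cort+/+ and 4.85% in Cort-/- mice) or over both. With libraries pooled and genotypes not weighted equally, the mean of its 8 MCAO libraries was 1.40 times that of its 6 CL libraries. Its log2 fold change over both genotypes was 0.45 (SE 0.0736, 95% interval 0.29 to 0.61, adjusted p = 0.00586 by limma). The call held in each of 14 models that left out 1 library, with adjusted p of 0.00201 to 0.0201.

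Igfbp2, a binding protein that astrocytes and the choroid plexus make in the brain, showed the same order of hemispheres. In Cort+/+ mice it was at 18.4, 19.6 and 17.4 RPKM in CL and at 26.7, 29.0 and 20.6 RPKM in MCAO. In Cort-/- mice it was at 17.0, 18.99 and 16.4 RPKM in CL and at 42.6, 25.2, 23.1, 39.8 and 29.6 RPKM in MCAO, with replicates 1 and 4 above all other libraries. No MCAO library overlapped a CL library, and the mean of the 8 pooled MCAO libraries was 1.65 times that of the 6 CL libraries. The log2 fold change over both genotypes was 0.64 (SE 0.136, 95% interval 0.35 to 0.93, adjusted p = 0.0212 by limma). The call was lost, at adjusted p of 0.0572 to 0.0652, without Cort-/- CL replicate 1 or 3, Cort+/+ CL replicate 3, or Cort+/+ MCAO replicate 2 or 3.

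Igfbp7, a binding protein of low affinity for the IGFs that is made by vascular cells, had the largest fold change among the members. It was at 14.7, 11.5 and 11.6 RPKM in the CL and at 16.5, 24.6 and 14.7 RPKM in the MCAO libraries of Cort+/+ mice. In Cort-/- mice it was at 12.9, 12.1 and 11.7 RPKM in CL and at 32.2, 20.8, 16.7, 33.5 and 25.5 RPKM in MCAO. Hemispheres did not overlap, but only just in Cort+/+ mice, where the highest CL library (replicate 1, 14.66 RPKM) and the lowest MCAO library (replicate 4, 14.70 RPKM) were among those that stood apart in the injury response genes. The mean of the 8 pooled MCAO libraries, 5 of them from Cort-/- mice, was 1.86 times that of the 6 CL libraries. With the genotypes weighted equally, the log2 fold change was 0.78 (SE 0.162, 95% interval 0.43 to 1.13, adjusted p = 0.0187 by limma). Among the 14 models with 1 library left out, the call was lost in 1, that without Cort+/+ CL replicate 3 (adjusted p = 0.0526). A pattern in which every MCAO library exceeds every CL library was met by 792 of 46102 genes (1.72%), and by 3.76% of genes that averaged 1 RPKM or more.

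The remaining binding proteins did not pass. Igfbp3, the main carrier of IGFs in serum, was at 5.27, 3.60 and 3.69 RPKM in Cort+/+ CL, 4.13, 6.59 and 4.33 in Cort+/+ MCAO, 3.81, 4.69 and 3.79 in Cort-/- CL, and 5.40, 5.04, 3.74, 10.99 and 5.02 RPKM in Cort-/- MCAO. A single library, Cort-/- MCAO replicate 4, held the highest value by far, and the groups otherwise overlapped. The log2 fold change over both genotypes was 0.35 (95% interval -0.10 to 0.80, adjusted p = 0.488 by limma). Without Cort-/- MCAO replicate 4 it was 0.23, and the value in Cort-/- mice went from 0.46 to 0.22. Over both genotypes it was 0.53 without the 3 libraries that stood apart. Igfbp4, the substrate of the protease PAPP-A, lay between 13.04 and 18.99 RPKM with a log2 fold change of -0.06 (95% interval -0.23 to 0.10), and Igfbp6, which prefers IGF2, between 16.5 and 22.8 RPKM with 0.08 (95% interval -0.07 to 0.22). For these 2 genes the intervals, which are for the mean of both genotypes, exclude a change by more than 0.23 on the log2 scale. Within 1 genotype they reached further, to -0.33 for Igfbp4 in Cort+/+ mice and to 0.29 for Igfbp6 in Cort-/- mice.

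**Figure D2:**
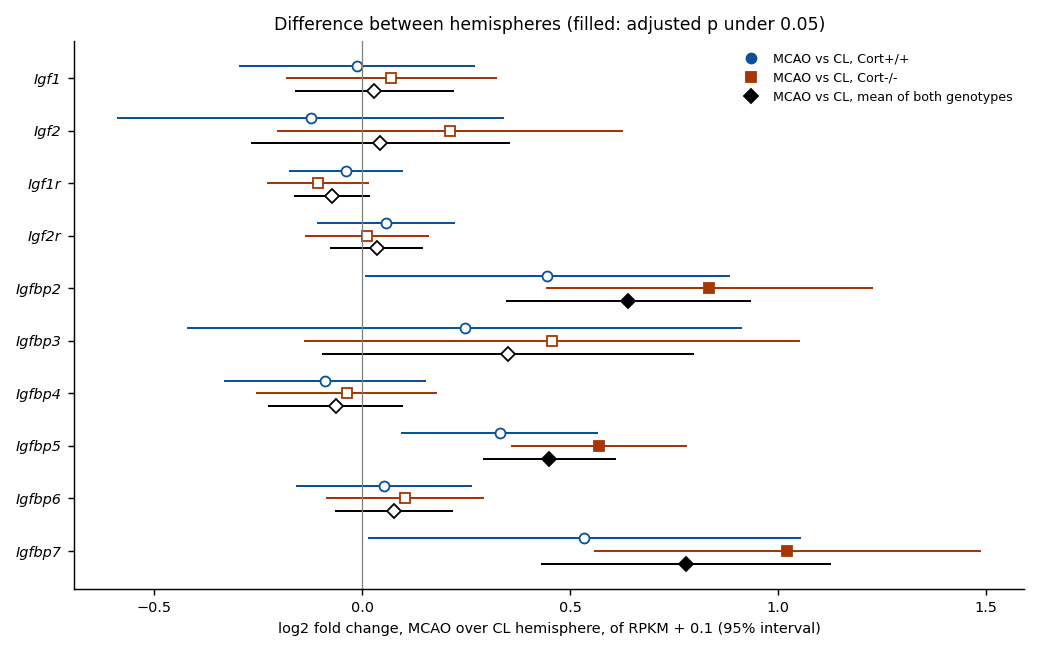
Log2 fold change of RPKM + 0.1 (x axis) between the MCAO and the CL hemisphere for each member (y axis), with 95% intervals, in Cort+/+ mice (circles), Cort-/- mice (squares) and the mean of both (diamonds). Filled symbols have an adjusted p under 0.05 and are those of Igfbp2, Igfbp5 and Igfbp7 in Cort-/- mice and in the mean, and no symbol of Cort+/+ mice is filled.

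Within Cort-/- mice the same 3 members rose and none fell, where 1.34% of genes rose (3.05% of those that averaged 1 RPKM or more) and 0.382% fell. The log2 fold change was 0.83 for Igfbp2 (SE 0.181, adjusted p = 0.0385), 0.57 for Igfbp5 (SE 0.0981, adjusted p = 0.0168) and 1.02 for Igfbp7 (SE 0.216, adjusted p = 0.0340), all by limma. The other 7 members lay between -0.11 and 0.46. Igfbp5 passed in 12 of 14 models with 1 library left out and was lost without Cort-/- CL replicate 1 (adjusted p = 0.0769) or 3 (0.0786). Igfbp7 passed in 8 of 14 and was lost without any 1 of the Cort-/- CL libraries or Cort-/- MCAO replicates 1, 4 or 5 (0.0702 to 0.130). Igfbp2 passed in 4 of 14, those without Cort-/- MCAO replicate 2 or 3 or Cort+/+ MCAO replicate 3 or 4, and its adjusted p was 0.0515 to 0.147 without any other library. Without the 3 libraries that stood apart, only Igfbp5 passed (adjusted p = 0.0490).

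Within Cort+/+ mice no member passed by limma on RPKM or by limma voom on reads, and 0.0108% of all genes did by the former. None of the 8 injury response genes passed there by limma on RPKM either. All 8 had a positive log2 fold change, with a median of 1.84. A missing call in Cort+/+ mice therefore does not show that a gene stayed unchanged. The paper, which tested with edgeR, reported many more genes for this comparison than the 5 called here by limma on RPKM. The log2 fold change was 0.44 for Igfbp2, 0.33 for Igfbp5 and 0.53 for Igfbp7, with unadjusted p-values of 0.0475, 0.0101 and 0.0453 by limma and adjusted p-values of 0.626, 0.394 and 0.617. Without Cort+/+ MCAO replicate 3 the log2 fold changes were 0.34, 0.22 and 0.31, and without the 3 libraries that stood apart they were 0.59, 0.45 and 0.80. These 3 were the only members with an unadjusted p under 0.05, which 7.87% of genes had (4.88% as higher values). The other 7 members lay between -0.12 and 0.25. The means of Igfbp2, Igfbp5 and Igfbp7 were 1.38, 1.26 and 1.48 times higher in MCAO in these mice, and 1.84, 1.49 and 2.11 times higher in Cort-/- mice.

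The response did not differ detectably between genotypes. In the interaction contrast, the Cort-/- minus the Cort+/+ response was 0.39 for Igfbp2 (95% interval -0.20 to 0.98), 0.24 for Igfbp5 (-0.08 to 0.56) and 0.49 for Igfbp7 (-0.21 to 1.19) on the log2 scale, and adjusted p by limma was 1 for each to 3 digits. No member passed at an unadjusted p under 0.05 either, against 3.31% of genes, and 0.00217% passed after adjustment. Without Cort+/+ MCAO replicate 4 the value for Igfbp2 was 0.25. Without the 3 libraries that stood apart the values were 0.31, 0.15 and 0.21, and with the replicate number as a block they were 0.16, 0.06 and 0.07. The values with the block rest only on replicate numbers present in both hemispheres of a genotype, and thus on fewer libraries. The intervals are wide and include both no difference and a response larger by more than 0.5 in Cort-/- mice.

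Between the genotypes themselves no member passed in either hemisphere, by limma or limma voom. In CL the log2 differences, Cort-/- minus Cort+/+, lay between -0.08 and 0.13 over the 10 members, none had an unadjusted p under 0.05, and 0.0152% of genes passed after adjustment (3.91% unadjusted). In MCAO they were 0.31 for Igfbp2 (95% interval -0.08 to 0.70), 0.23 for Igfbp5 (0.02 to 0.44) and 0.45 for Igfbp7 (-0.01 to 0.92), and -0.01 to 0.39 for the other 7. Leaving out Cort+/+ MCAO replicate 4 gave 0.16 for Igfbp2 and 0.30 for Igfbp7, and leaving out Cort-/- MCAO replicate 1 gave 0.20 for Igfbp2. Igfbp5 alone had an unadjusted p under 0.05 by limma (0.0367, adjusted p = 1), where 3.82% of genes did and 0.0174% passed after adjustment. The injury response sum averaged 392 RPKM in the 3 Cort+/+ and 533 RPKM in the 5 Cort-/- MCAO libraries, with overlapping ranges of 210 to 588 and 276 to 757 RPKM, and its part in these differences was not tested.

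The libraries with the highest injury response sums were also the highest for the 3 binding proteins. Cort-/- MCAO replicates 1 and 4, with the highest injury sums (702 and 757 RPKM), held the 2 highest values of Igfbp2, of Igfbp5 and of Igfbp7. Cort+/+ MCAO replicate 4, with the lowest sum of the MCAO libraries (210 RPKM), held the lowest MCAO values of Igfbp2 and Igfbp7. The lowest MCAO value of Igfbp5 (39.2 RPKM) was in Cort+/+ MCAO replicate 2, with a sum of 378 RPKM, and the highest CL value of Igfbp2 (19.6 RPKM) was in Cort+/+ CL replicate 2, with a sum of 69.7 RPKM. Igf1 was lowest of all 14 libraries in Cort-/- MCAO replicate 4 (0.733 RPKM) and Igf1r in Cort-/- MCAO replicate 1 (6.79 RPKM).

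**Figure D3:**
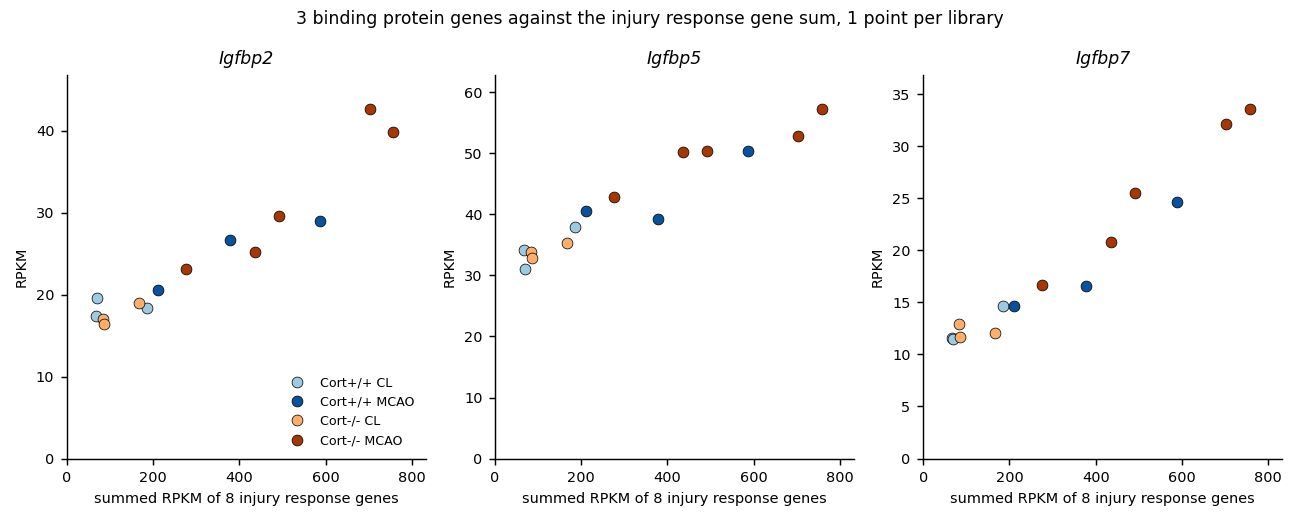
RPKM of Igfbp2, Igfbp5 and Igfbp7 (y axes, from 0) against the summed RPKM of 8 injury response genes (x axis), 1 point for each of the 14 libraries, coloured by group. The 6 CL libraries lie at sums up to 186 RPKM, and the 2 libraries with the highest sums (702 and 757 RPKM) are Cort-/- MCAO replicates 1 and 4, which are also the highest for each gene.

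Markers of other cell types were read in the same libraries. Over both genotypes, where 2.52% of all genes rose (5.56% of those that averaged 1 RPKM or more), 7 of 8 injury response genes, 4 of 5 microglial, 3 of 6 astrocyte, 2 of 6 endothelial, 1 of 6 fibroblast and 1 of 6 monocyte and macrophage markers rose. None of the 6 mural, 6 oligodendrocyte or 6 neuronal markers or of the 5 markers of neutrophils and red blood cells passed, and no marker fell. Endothelial markers (Cldn5, Pecam1, Flt1, Slco1a4, Cdh5 and Ly6c1) summed to 43.5 to 62.8 RPKM in CL and 57.2 to 74.9 RPKM in MCAO libraries. Astrocyte markers (Aqp4, Gja1, Slc1a3, Slc1a2, Aldh1l1 and Gfap) summed to 477 to 594 RPKM in CL and 556 to 764 RPKM in MCAO libraries, Gfap being among the injury genes as well. The part of these cell types in the rise of the binding proteins was not tested. No list had a marker at 0 in any group.

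The rest of the pathway was followed through 37 further genes, of which 36 were tested, since Ins1 did not pass the filter. Over both genotypes 1 rose and 2 fell, where 3.43% of all genes passed in either direction, and in the other 5 comparisons none of the 36 passed. The median log2 fold change was -0.05, against -0.03 over genes that averaged 1 RPKM or more, and 11 of 36 had an unadjusted p under 0.05 (14.9% of all genes did). With the test limited to the 17476 genes that averaged 0.5 RPKM or more, 4738 had an unadjusted p under 0.05. After adjustment 1348 of these genes rose and 832 fell, so the shares among expressed genes are higher than those among all genes.

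Among the 7 receptor adaptors, Shc1, which links IGF1R to the MAP kinases, rose by a log2 fold change of 0.33 (SE 0.0706, adjusted p = 0.0221 by limma). It was at 3.46, 3.74 and 3.04 RPKM in Cort+/+ CL, 4.09, 4.66 and 3.81 in Cort+/+ MCAO, 3.54, 3.72 and 3.52 in Cort-/- CL, and 4.85, 4.23, 4.27, 5.45 and 4.70 RPKM in Cort-/- MCAO. All MCAO libraries exceeded all CL libraries, as they did for 1.72% of all genes and 3.76% of those that averaged 1 RPKM or more. The call was lost without Cort-/- CL replicate 1 or 3, Cort+/+ CL replicate 3 or Cort+/+ MCAO replicate 3, at adjusted p of 0.0563 to 0.0654. Irs4, another adaptor, had a log2 fold change of -0.18 (95% interval -0.90 to 0.55) and did not pass.

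Foxo1, a transcription factor that Akt signalling keeps out of the nucleus, fell by 0.23 on the log2 scale (SE 0.04998, adjusted p = 0.0248 by limma). It was at 4.16, 4.29 and 4.18 RPKM in Cort+/+ CL, 3.70, 3.51 and 3.78 in Cort+/+ MCAO, 4.39, 4.46 and 4.34 in Cort-/- CL, and 3.34, 3.60, 3.56, 3.62 and 4.21 RPKM in Cort-/- MCAO, where replicate 5 alone reached the CL range. The call was lost in 7 of 14 models, those without any 1 of the Cort-/- CL libraries, Cort+/+ CL replicate 2 or 3, or Cort+/+ MCAO replicate 2 or 3 (adjusted p of 0.0532 to 0.0741), and also with values rescaled to TPM (0.0682), with limma voom on reads (0.0501) and without the 3 libraries that stood apart (0.0856). Foxo1 was the only one of the 15 genes of PI3K, Akt and Foxo to pass. Their median was -0.08, 2 of the 15 had a positive log2 fold change, and Gsk3b, a kinase that Akt inhibits, had -0.19 (95% interval -0.30 to -0.08, adjusted p = 0.0647 by limma).

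Among the 5 genes of binding protein proteases and their inhibitors, Stc1, which codes for an inhibitor of PAPP-A, fell by 0.33 on the log2 scale (SE 0.0703, adjusted p = 0.0225 by limma). Its group means were 1.23 RPKM in Cort+/+ CL and 0.837 in Cort+/+ MCAO, 1.08 in Cort-/- CL and 0.962 in Cort-/- MCAO, and no MCAO library reached a CL library, although the highest MCAO (1.067 RPKM) and the lowest CL library (1.068 RPKM) nearly met (0.651% of genes were lower without overlap). The call was lost without Cort-/- CL replicate 1 or 3 or Cort+/+ MCAO replicate 2 or 3 (adjusted p of 0.0520 to 0.0603), and it was lost with values rescaled to TPM (0.0555), with limma voom on reads (0.0552), and without the 3 libraries that stood apart (0.109). Htra1, a protease that cuts IGFBPs, was abundant at 60.7 to 62.1 RPKM in the group means and had a log2 fold change of -0.01 (95% interval -0.23 to 0.22). The insulin receptor Insr had -0.10 (95% interval -0.20 to 0.01). None of the other binding proteins and carriers (Igfbp1, Igfbpl1 and Igfals), the insulin family or the Igf2 mRNA-binding proteins passed.

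**Figure D4:**
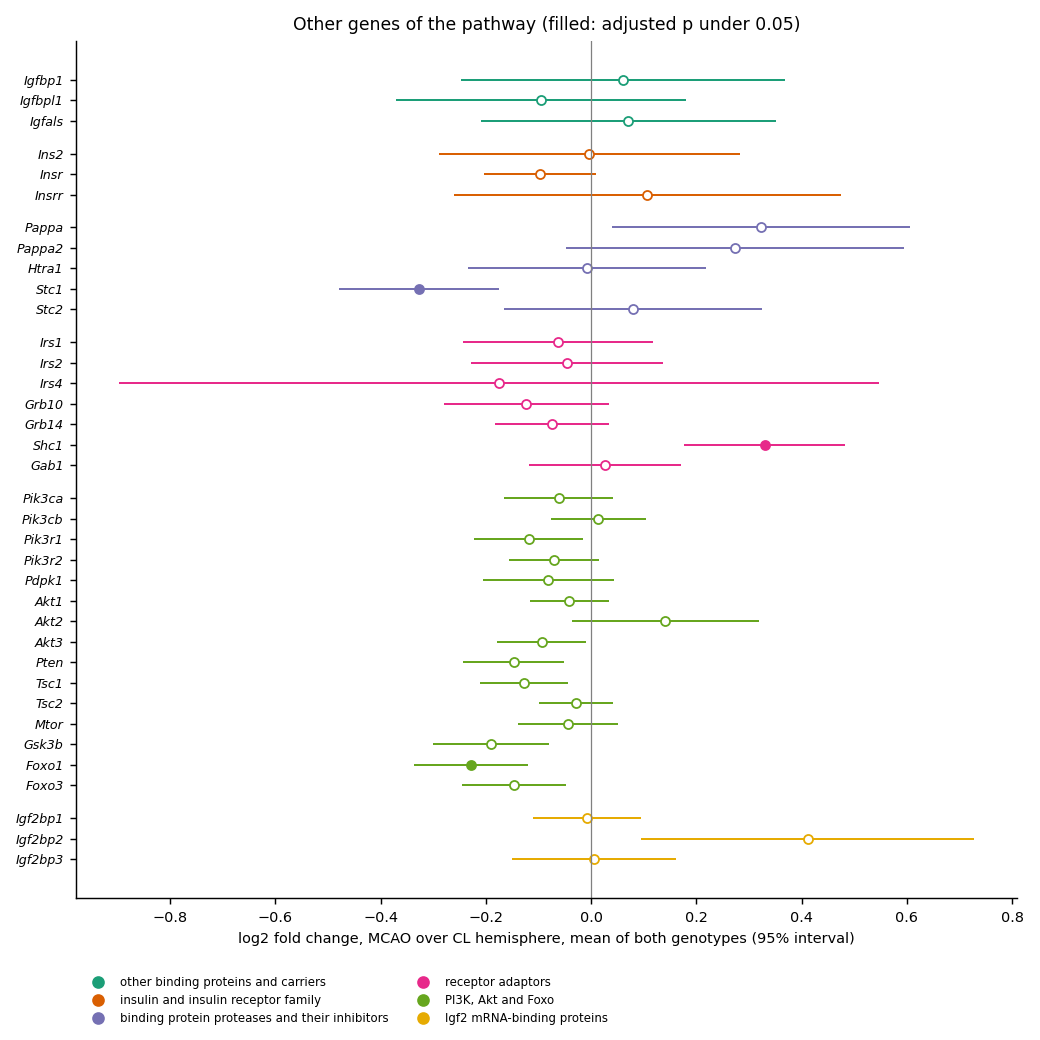
Log2 fold change of RPKM + 0.1 (x axis) between MCAO and CL hemispheres, mean of both genotypes, with 95% intervals, for the 36 further genes of the pathway (y axis), coloured by list. Filled points have an adjusted p under 0.05 and are Shc1 (0.33), Foxo1 (-0.23) and Stc1 (-0.33).

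To describe which genes vary most like each member, log2(RPKM + 0.1) was correlated over the 14 libraries after the group means were taken out, among 15054 genes that averaged 1 RPKM or more. The points share libraries, depth and the degree of injury, so these values describe the libraries only. The genes most like Igfbp7 were Ifitm1 (Pearson r = 0.98), Ppp1r18 (0.98) and Gm45213 (0.98), and those most like Igfbp2 were Gm21970 (0.98), Efemp2 (0.97) and Sgpl1 (0.96). Parp3 (0.96), Adam9 (0.96) and Pcna (0.95) were most like Igfbp5. Igfbp3 was followed by Anxa11 (0.95), Bmp1 (0.95) and Ndst1 (0.95), and Igfbp4 by Ssr3 (0.97), Vip (0.97) and Klc3 (0.97). By rank (Spearman) the values with Igfbp3 were 0.90 for Anxa11, 0.65 for Bmp1 and 0.82 for Ndst1. The highest values of both Igfbp3 and Igfbp4 were in Cort-/- MCAO replicate 4. For Igf2 they were Gm49394 (1.00), which shares its reads, Als2cl (0.93) and the collagen gene Col3a1 (0.93). Igf1r was nearest to Ncor1 (0.96) and Igfbp6 to Pip5k1c (0.87). Among the members, Igfbp3 and Igfbp4 had r = 0.95, Igfbp4 and Igfbp5 0.89, Igfbp5 and Igfbp7 0.89, and Igfbp2 and Igfbp7 0.86, while Igfbp6 reached at most 0.45 with any other binding protein.

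By position, Igfbp2 and Igfbp5 are neighbours on chromosome 1 of GRCm39, on opposite strands and 5.456 kb apart, and both rose. Igfbp3 lies 3.539 kb from Igfbp1 on chromosome 11, and neither passed. None of the 10 members is on chromosome 4, which holds Cort. Igfbp7 overlaps Polr2b, a gene of the other strand with 18.1 RPKM. The log2 fold change of Polr2b was -0.02 in Cort+/+ and 0.03 in Cort-/- mice (adjusted p = 0.987 and 0.855 by limma), and whether reads were counted by strand is not given in the sources used here.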

How the data were processed

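The 14 libraries analysed here were made as stranded poly(A) libraries from brain hemispheres. Cort+/+ MCAO replicates 1 and 5 were not analysed here. Per the paper's methods, the authors aligned reads to GRCm39 with reanalyzerGSE, used GENCODE M28, and left out replicates of large variability. They deposited RPKM values, scaled by gene length and depth, 1 column per library. Whole reads were recovered from these: 100% of 495656 values above 0 were whole within 0.0001 reads. Promoter sequences are from RefSeq and positions from GENCODE M39 (GRCm39).

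Genes above 0 in at least 2 libraries (46102 of 46904) were tested with limma 3.58.1 (R 4.3.3) on log2(RPKM + 0.1), in 1 model of 4 group means with moderated variances and a trend, without a block. P-values were adjusted by Benjamini-Hochberg over all genes. Fold changes on this scale understate those of low genes. A gene is called at an adjusted p under 0.05. The mean of both genotypes is not a comparison of the study. The script was tested on simulated data.

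The members and lists were chosen with earlier results of these data known. All members are named. Some items of the lists are not reported here. Of the other pathway genes, those called in any comparison are named, and in each list the 2 of largest mean change and 1 RPKM or more. Alternatives were other pseudocounts (0.01, 0.5 and 1), filters, scalings, variance models, replicate blocks and leaving out libraries. Limma voom on recovered reads with a filter, and the model without 3 libraries, were added after seeing the data. Voom called 1215 genes higher and 200 lower in Cort-/- mice, against 616 and 176 on RPKM. Python 3.11.15, pandas 2.3.3, scipy 1.17.1 and matplotlib 3.10.9 were used.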

Additional observations from a re-analysis of the deposited data

Results flagged for a closer look

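Within the group of 5 Cort-/- MCAO libraries, 17 genes (the members and the named genes of the pathway) were examined for a library far from the others by Dixon's ratio, the gap to the nearest library over the range of the group, with a critical value of 0.71. Chance flags about 1 in 20 groups. Igfbp3 had a ratio of 0.771, since replicate 4 held 10.99 RPKM and the others 3.74 to 5.396 RPKM. Irs4 had a ratio of 0.733, since the same replicate 4 held 0.263 RPKM and the others 1.28 to 1.65 RPKM.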

How the results depend on the processing

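The log2 fold changes of Igfbp2, Igfbp5 and Igfbp7 were positive in both genotypes under each alternative run, without passing in Cort+/+ mice. In Cort-/- mice, where 3 members were called, the count was 1 without the variance trend, 1 when the model held the 2 compared groups alone, and 1 without the libraries that stood apart, and 0 to 3 with 1 library left out: 0 without Cort-/- CL replicate 1 or 3, and 1 without Cort-/- CL replicate 2 or Cort-/- MCAO replicate 1, 4 or 5. Over both genotypes, where 3 were called, it was 1 to 3 with 1 library left out (1 without Cort+/+ CL replicate 3). The cause was not tested. With 3 to 5 libraries a group, the member counts in Cort+/+ mice and between genotypes were 0 under each alternative.

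Fitting the replicate number as a block left 0 members called in Cort-/- mice and 0 over both genotypes, as it left 0 of all genes. This block rests only on numbers present in both hemispheres of a genotype. It leaves little to estimate the variance from, so its lack of calls says little about the members. The labels do not say that equal numbers mark hemispheres of 1 animal. The paper describes separating brains into the 2 hemispheres, so some libraries may share an animal. Same-numbered hemispheres had deviations correlated at -0.239 to 0.316, and same-numbered libraries of the 2 genotypes at -0.411 to 0.131. These few correlations cannot show whether equal numbers mark 1 animal, and no pairing was assumed.

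Small differences over both genotypes changed sign, all far from the threshold. Igf1 (0.03) was -0.054 with quantile normalization, -0.0038 without the libraries that stood apart and -0.0035 to 0.068 with 1 library left out (negative without Cort-/- CL replicate 2). Igf2 (0.04) was -0.033 to 0.121 with 1 library left out, negative without Cort-/- CL replicate 3, Cort+/+ CL replicate 3 or Cort-/- MCAO replicate 1. Igf2r (0.03) was -0.0032 to 0.061, negative without Cort+/+ CL replicate 3.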
